A study of Mus musculus with 45 samples.

Results

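The 10 genes that build and cluster the muscle acetylcholine receptor were followed here across a mouse reprogramming series: the receptor subunits Chrna1, Chrnb1, Chrnd, Chrng and Chrne, the assembly genes Lrp4, Musk, Dok7 and Rapsn, and Ache, which encodes acetylcholinesterase. The 10 genes were chosen by name, as the postsynaptic core of the neuromuscular junction, and they are 10 of the 35675 genes whose transcripts were summed. All 10 passed the filter on low counts, which left 17325 genes for testing. RNA-seq was done on 45 libraries in 15 groups of 3.

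Every group carried the genotype Tg:Pax7-nGFP/C57BL6;DBA2, in which a nuclear GFP reports Pax7, a gene that marks muscle stem cells. The starting cells were untreated mouse embryonic fibroblasts (MEFs) with a doxycycline-inducible MyoD, the transcription factor that turns fibroblasts into muscle. The induced groups received doxycycline (Dox) for 2, 4, 6, 8 or 10 days, either alone (MyoD alone, labelled as myotubes) or with small molecules that the labels abbreviate F/R/C (MyoD plus F/R/C, labelled as muscle fibers and progenitors). Bulk induced myogenic progenitor cells (iMPCs) had 13 days of Dox with F/R/C and were kept in F/R/C medium, and the design text calls such cells clones that no longer need Dox. Primary myoblasts, which are cultured muscle precursor cells, were profiled in bulk and without added factors. From both iMPCs and myoblasts, cells positive for the Pax7 reporter were also purified by FACS (Pax7+ iMPCs and Pax7+ myoblasts). Ages and the number of animals or clones were not given in the sources used here. Nothing in the labels says that the 3 libraries of a group came from separate cultures or animals, so p-values measure the spread between these libraries, which may be technical.

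At the neuromuscular junction, nerve-derived agrin binds the receptor LRP4 on the muscle membrane, and LRP4 then activates the kinase MuSK. DOK7 binds MuSK inside the fibre and keeps it active, and the scaffold protein rapsyn ties acetylcholine receptors into a dense cluster under the nerve ending. Fetal and denervated muscle make a receptor that contains the gamma subunit (Chrng), and innervated adult muscle replaces it with the epsilon subunit (Chrne). MyoD and its relatives bind E-boxes, short DNA words of the form CANNTG, in the promoters of several receptor genes. ETS-family factors bind the N-box, CCGGAA, in promoters of genes that are transcribed by nuclei under the synapse.

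The stretches just upstream of the RefSeq starts of 4 members are shown because these genes stand for the classes compared below: the fetal subunit Chrng, the alpha subunit Chrna1, the kinase gene Musk and the adult subunit Chrne. Sequences come from RefSeq for build GRCm38.p6, run 5′ to 3′ on the strand of the gene, stop at the RefSeq start or before the first annotated exon base where that comes first (as for Chrne, whose stretch ends before its RefSeq start), and carry E-box words (CANNTG) and the N-box word (CCGGAA) in capitals. They lie at chr1:87205561-87205809 (Chrng, plus strand), chr2:73580339-73580588 (Chrna1, minus strand), chr4:58285712-58285959 (Musk, plus strand) and chr11:70619217-70619444 (Chrne, minus strand). The Chrng stretch is upstream of the RefSeq start but lies inside the gene bounds of the annotation used for the counts, which begin at 87204657.
Chrng: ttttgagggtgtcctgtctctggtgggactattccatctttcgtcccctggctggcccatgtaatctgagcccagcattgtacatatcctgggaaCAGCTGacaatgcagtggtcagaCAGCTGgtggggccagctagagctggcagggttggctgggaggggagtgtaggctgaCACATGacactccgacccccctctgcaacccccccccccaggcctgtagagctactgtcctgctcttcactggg
Chrna1: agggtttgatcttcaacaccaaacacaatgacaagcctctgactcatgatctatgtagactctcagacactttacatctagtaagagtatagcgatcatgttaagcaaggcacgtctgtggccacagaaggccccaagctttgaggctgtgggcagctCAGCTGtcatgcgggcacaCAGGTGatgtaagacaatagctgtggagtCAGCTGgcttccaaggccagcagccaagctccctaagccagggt
Musk: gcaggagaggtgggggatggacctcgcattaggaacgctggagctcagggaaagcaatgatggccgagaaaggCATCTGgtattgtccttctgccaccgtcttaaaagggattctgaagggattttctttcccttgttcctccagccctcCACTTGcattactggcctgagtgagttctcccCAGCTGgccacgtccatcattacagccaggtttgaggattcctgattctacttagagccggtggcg
Chrne: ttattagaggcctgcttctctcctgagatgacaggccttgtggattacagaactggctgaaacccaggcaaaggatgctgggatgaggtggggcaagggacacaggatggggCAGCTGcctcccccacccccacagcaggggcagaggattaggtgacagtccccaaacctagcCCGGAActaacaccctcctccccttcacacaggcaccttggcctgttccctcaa

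The windows of Chrng, Chrna1 and Musk hold 3 E-boxes each, and the window of Chrne holds 1 E-box and 1 N-box. In the 250 bases upstream of the start, 66.2% of 32851 RefSeq mouse promoters hold a CANNTG, which is its own reverse complement, so that 1 such word is common. The subtype CAGCTG, which occurs in all 4 windows, is in 13.0% of promoters, and CCGGAA on either strand is in 12%. Among the other members with a RefSeq entry, Chrnb1 holds 3 E-boxes, Ache holds 1, and Dok7 holds 1 at the first of its 2 listed starts and 0 at the other. The subtype CAGCTG occurs 0 times in the windows of Chrnb1, Ache and Dok7. Promoters of Chrnd, Rapsn and Lrp4 were not analysed here. A match is a description of the letters and does not show that a factor was bound.

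In the GRCm38 annotation all 10 are protein-coding genes. Chrnd (ENSMUSG00000026251.13, chr1:87190607-87200070) and Chrng (ENSMUSG00000026253.14, chr1:87204657-87212694) are neighbours on the plus strand. Chrna1 (ENSMUSG00000027107.3) lies at chr2:73563215-73580338, and Chrnb1 (ENSMUSG00000041189.9, chr11:69784036-69795943) and Chrne (ENSMUSG00000014609.16, chr11:70614883-70619216) share chromosome 11. Rapsn (ENSMUSG00000002104.11, chr2:91035620-91045729) and Lrp4 (ENSMUSG00000027253.15, chr2:91457511-91513779) share chromosome 2. Musk (ENSMUSG00000057280.15) is at chr4:58285960-58374303, and Dok7 (ENSMUSG00000044716.12, chr5:35056766-35087839) and Ache (ENSMUSG00000023328.14, chr5:137287519-137294466) are on chromosome 5. Chrne, Rapsn and Ache overlap antisense genes, to which 5, 89 and 14 reads were assigned over all libraries.

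Libraries held 15.6 to 36.3 M estimated reads, with a median of 22.1 M, and the bulk iMPC libraries were among the deepest. The summed level of 9 fibroblast markers was 10380 to 14200 CPM (reads scaled to library size with TMM factors) in MEFs and 340.2 to 584.7 CPM in bulk myoblasts. The summed level of 9 differentiated muscle markers was 51.66 to 148.7 CPM in MEFs. Pax7 stood at 263 to 351 CPM in Pax7+ iMPCs and 39.3 to 81.3 CPM in bulk iMPCs, and at 349 to 813 CPM in Pax7+ myoblasts and 401 to 639 CPM in bulk myoblasts, so that the sort separated the iMPC libraries by Pax7 level but not the myoblast libraries. It was at most 0.198 CPM in MEFs and with MyoD alone. Several libraries stood apart: MEF replicate 1 held reads of Chrng, Chrnd, Musk and Lrp4 that the other MEF libraries lacked or held at a lower level, and bulk myoblast replicate 3 was far below its group in differentiated muscle markers (1050 CPM, against 17040 and 31480 CPM). Pax7+ iMPC replicate 1 was above its group in the summed neuron markers (153.9 CPM, against 12.08 and 23.31 CPM), most of which was Tubb3. In bulk RNA, fewer cells of a type and less RNA per cell cannot be told apart. The 6 sorted libraries were quantified with a length correction of 179 bases per transcript, against 90.12 to 142.2 bases in the others, and the effect of that setting cannot be told apart from the effect of the sort.

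All 10 genes were low in fibroblasts, where Chrne had no read, and the 9 others rose within 2 days of MyoD induction, by at least 3.86 on the log2 scale with MyoD alone. A gene was called changed where edgeR's quasi-likelihood test gave a Benjamini-Hochberg adjusted p under 0.05 over all genes tested and the log2 fold change was at least 1 in size. On day 2 of MyoD alone, 9 of 10 members were called higher than in MEFs, where 22.4% of all genes were called in either direction and 12.3% higher. With F/R/C on day 2 the count was again 9 of 10, against 20.4% of all genes (11.5% higher). On day 10 it was 9 of 10 with MyoD alone, against 18.9% of all genes (14.3% higher), and 9 of 10 with F/R/C, against 34.8% (19% higher). The median log2 fold change of the 10 members was 5.92, 6.15, 6.46 and 7.23 in these comparisons, beside 0.00, 0.00, 0.01 and 0.08 over all genes, and without Chrne it was 6.15, 7.16, 7.32 and 7.33. The 4 comparisons share the MEF libraries, and the exception in each was Chrne.

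**Figure D1:**
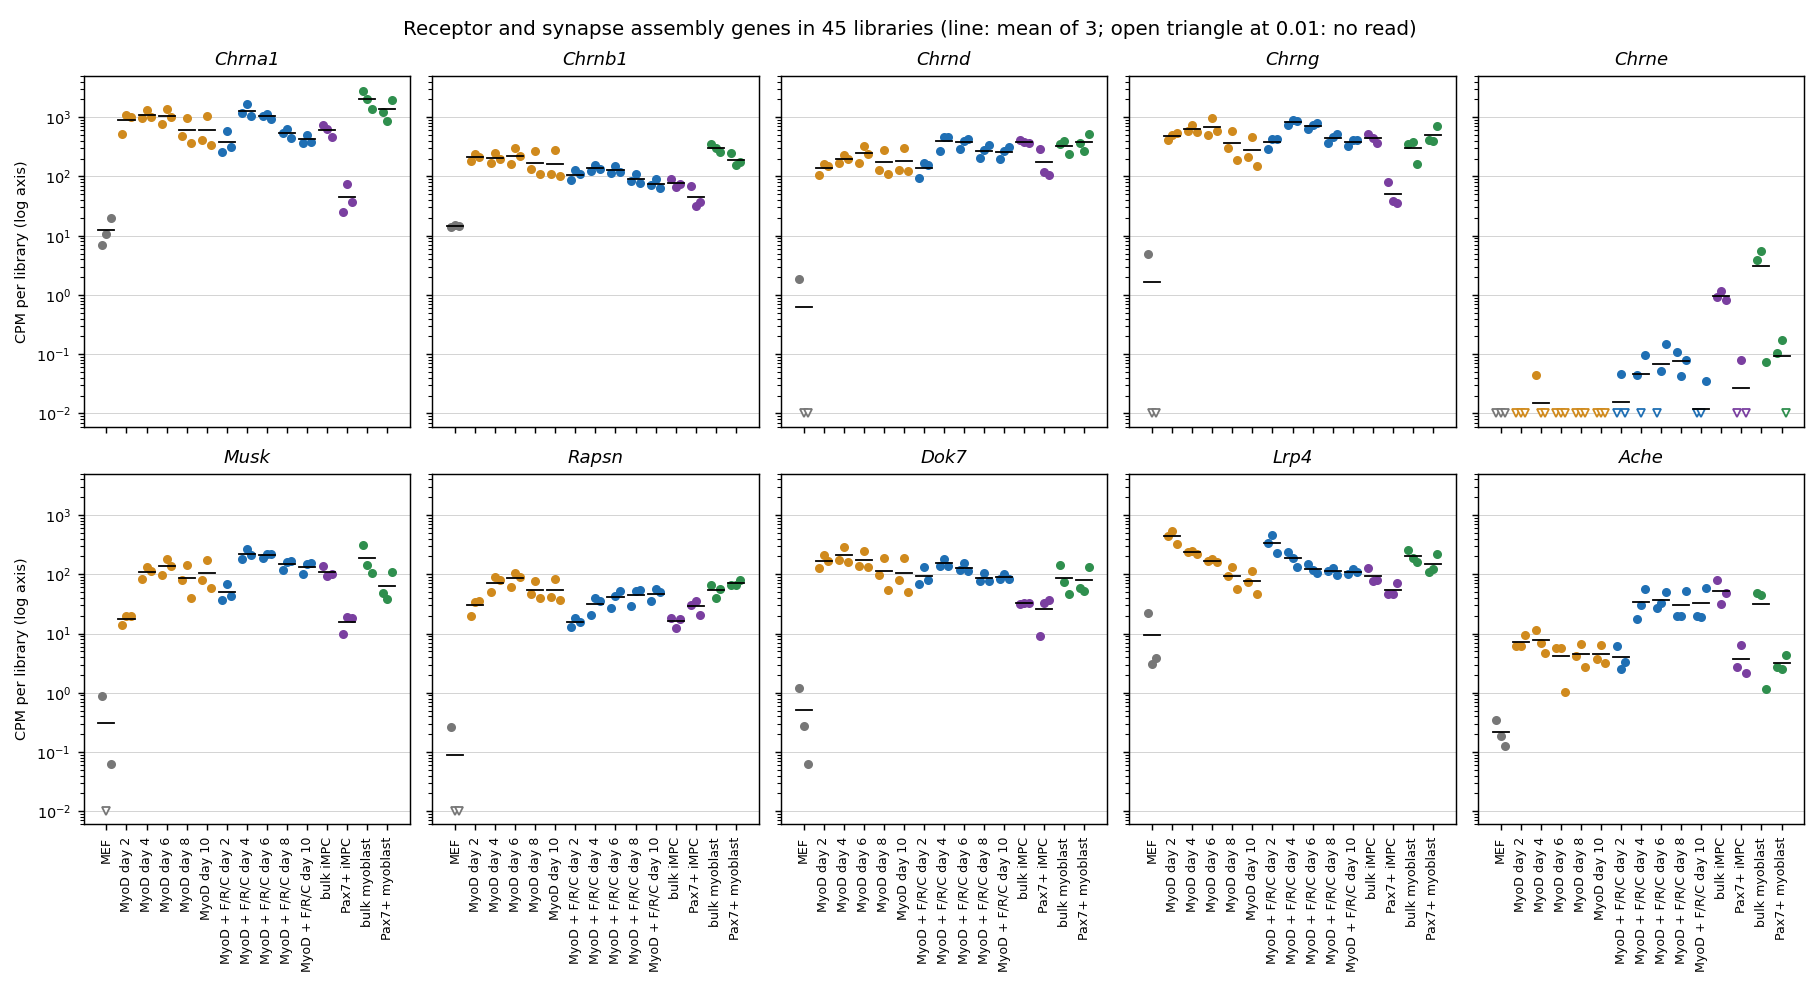
CPM of each of the 10 genes (log axis) in the 45 libraries, with 1 point per library in 15 groups, a black line at the mean of 3 libraries and open triangles at 0.01 for libraries with no read. Chrna1 runs from 6.99 CPM in a MEF library to 2798 CPM in a bulk myoblast library, Chrne has reads above 5 per library in no group but bulk iMPCs and bulk myoblasts, and from day 4 on every Ache point with F/R/C lies above those of MyoD alone on that day.

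Chrna1, the subunit that carries the acetylcholine binding site and is needed in every muscle receptor, stood at 6.99, 10.7 and 19.9 CPM in MEFs. On day 2 of MyoD alone it reached 529.9, 1109 and 1025 CPM. The groups did not overlap, and the fitted log2 change was 6.15 (SE 0.55, adjusted p = 3.1e-10). Chrnb1, the beta subunit, was the member with the highest TPM in MEFs among the 5 subunits, at 14.3, 15.1 and 14.5 CPM. It rose to 184, 242 and 211 CPM, a log2 change of 3.86. Of the 9 genes called on day 2 of MyoD alone, it moved least.

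Chrnd and Chrng, which encode the delta and gamma subunits, had no reads in MEF replicates 2 and 3 but 42 and 112 reads in MEF replicate 1. On day 2 of MyoD alone, Chrng stood at 411, 498 and 536 CPM and Chrnd at 107, 164 and 151 CPM. Their fitted log2 changes of 8.13 and 7.72 rest on MEF replicate 1. Without that library, and with the other MEF libraries set to a floor of 3 reads each, Chrng was at least 2930-fold and Chrnd at least 855-fold higher, and both remained called.

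The assembly genes rose as well on day 2 of MyoD alone, by log2 changes of 5.68 (Musk), 8.17 (Rapsn), 8.27 (Dok7) and 5.49 (Lrp4). MEF replicate 1 again set the size of these values. It held 499 reads of Lrp4, against at most 66 in the other MEF libraries, and without it the fitted log2 changes were 9.08 for Musk, 9.78 for Dok7 and 6.97 for Lrp4, while Rapsn was at least 181-fold higher. Ache rose from 0.352, 0.186 and 0.127 CPM to 6.13, 6.19 and 9.39 CPM, a log2 change of 4.95 (SE 0.96, adjusted p = 0.00015). All 9 genes were still called without MEF replicate 1 in each of the 4 comparisons. Lrp4 lost its call for MyoD alone on day 10 when these 2 groups alone were fitted (3.03, adjusted p = 0.053, over a range of 1.8e-10 to 0.053).

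The time courses of the members differed after day 2. Lrp4, the agrin receptor, was highest on day 2 and lower by day 10, whereas Musk, the kinase that acts with it, was lowest on day 2. The mean of Musk was highest on day 6 with MyoD alone (139 CPM, against 104 CPM on day 10). With F/R/C it was highest on day 4 (220 CPM, against 135 CPM on day 10). With MyoD alone, Lrp4 stood at 447, 538 and 322 CPM on day 2 and at 75.0, 114 and 45.9 CPM on day 10. The 2 days did not overlap, and Lrp4 fell by 2.48 on the log2 scale (SE 0.45, adjusted p = 0.00044). Musk went from 13.7, 19.6 and 20.0 CPM to 80.8, 173 and 58.0 CPM, a rise of 2.55 (SE 0.51, adjusted p = 0.0011). These were the 2 members called of 10 between day 10 and day 2 of MyoD alone, where 6.26% of all genes were called.

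With F/R/C, 4 of 10 members were called between day 10 and day 2, against 16% of all genes. Lrp4 fell from 334, 455 and 227 CPM to 99.4, 125 and 109 CPM (log2 change -1.61, SE 0.44, adjusted p = 0.0072). Musk rose from 37.4, 68.5 and 42.4 CPM to 102, 150.2 and 153 CPM (1.45, SE 0.49, adjusted p = 0.025). Rapsn rose from 13.0, 18.3 and 15.9 CPM to 35.0, 56.0 and 49.3 CPM (1.57, SE 0.38, adjusted p = 0.0027), and Ache rose by 3.03 (SE 0.76, adjusted p = 0.0036). None of the 4 genes overlapped between the 2 days, which describes genes already selected by the test on the same libraries. The call of Musk was lost without F/R/C day 2 replicate 1 or 3 or without F/R/C day 10 replicate 2, and that of Lrp4 without F/R/C day 2 replicate 2. Adjusted p-values then lay between 0.054 and 0.084 for Musk and at 0.061 for Lrp4. Over all alternatives tried they ranged from 0.0077 to 0.084 and from 0.003 to 0.061. Without F/R/C day 10 replicate 3, the change of Ache was 2.41 and was still called.

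Between MyoD plus F/R/C and MyoD alone on the same day, 0 to 2 of the 10 genes were called, near the share of all genes called. The change called most often was a higher level of Ache. Of the 10 members, 0 were called on day 2, 2 on day 4, 2 on day 6, 1 on day 8 and 2 on day 10, where 4.93%, 13.2%, 15.4%, 18.7% and 23.3% of all genes were called. The member medians of the log2 change were -0.61, 0.31, 0.03, 0.29 and 0.43 on these days, beside 0.00, -0.01, -0.03, -0.06 and -0.07 over all genes. Of the differentiated muscle markers, 0 of 9 were called with F/R/C on any day. Their median log2 changes on these days were -0.584, 0.237, 0.205, 0.05 and -0.2. Of 8 proliferation markers, 7 were higher on day 6, 8 on day 8 and 6 on day 10, with summed levels on day 10 of 442.1 to 987.5 CPM against 41.77 to 376.7 CPM. Of 9 fibroblast markers, 1 was higher with F/R/C on day 2 (Prrx1), 2 on day 4 and 2 on day 6 (Prrx1 and Dcn), 0 were called on day 8, and 2 were lower on day 10 (Thy1 and Col1a2). Their median log2 changes were 1.23, 0.77, 0.51, 0.21 and -0.39, and their summed level on day 10 was 1035 to 4629 CPM against 2980 to 11260 CPM. The part of these markers in the changes of the members was not tested.

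**Figure D2:**
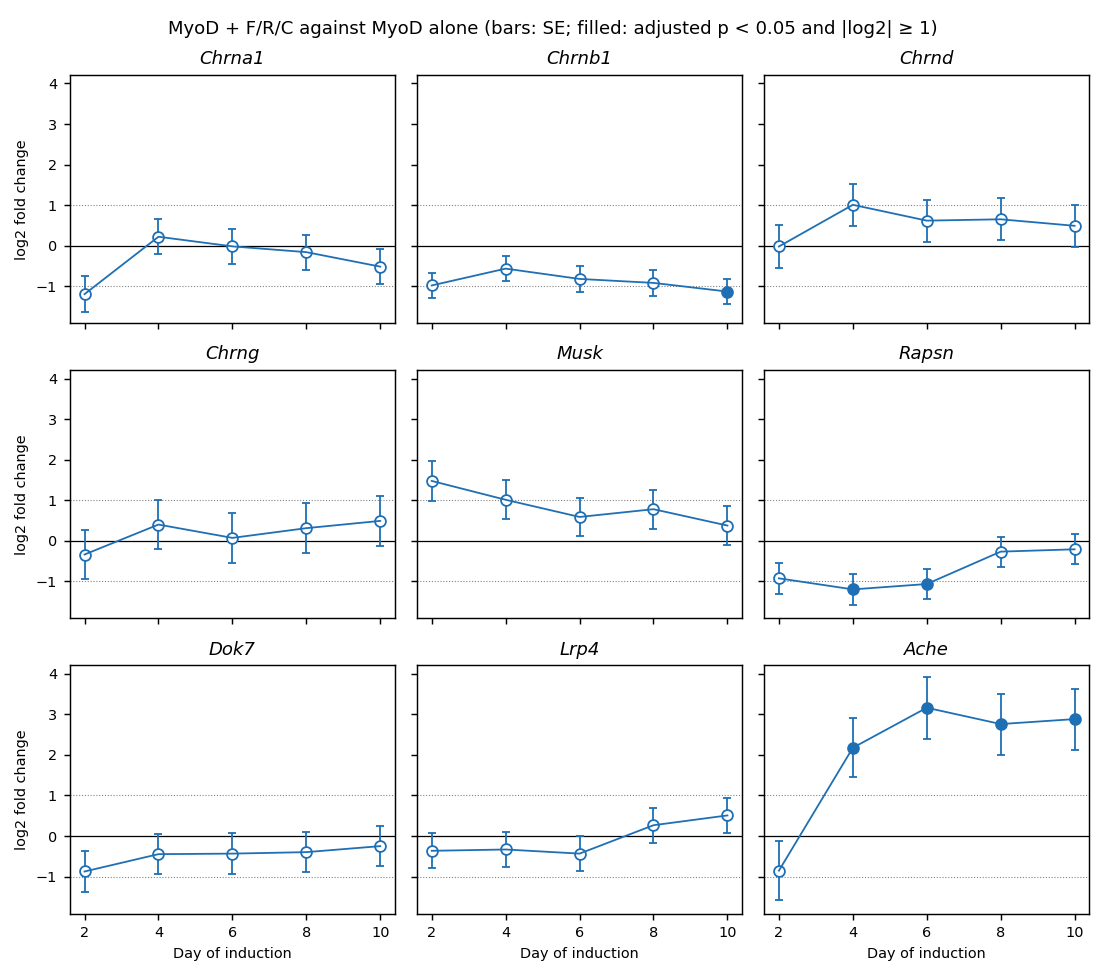
Fitted log2 fold change of MyoD plus F/R/C over MyoD alone on days 2, 4, 6, 8 and 10 for 9 members (Chrne, with at most 3 reads per library here, is left out). Bars are standard errors, dotted lines mark a log2 change of 1 in either direction, and filled points are called: Ache is filled on days 4 to 10, Rapsn on days 4 and 6 and Chrnb1 on day 10.

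Acetylcholinesterase, the product of Ache, ends transmission by splitting acetylcholine in the synaptic cleft. On day 2, Ache stood at 6.17, 2.53 and 3.31 CPM with F/R/C and at 6.13, 6.19 and 9.39 CPM without. On day 6 it stood at 27.2, 32.9 and 50.9 CPM with F/R/C and at 5.60, 5.73 and 1.04 CPM without. The groups overlapped on day 2 and were apart on days 4, 6, 8 and 10. The log2 changes were 2.18 (SE 0.73, adjusted p = 0.029) on day 4, 3.16 (SE 0.76, adjusted p = 0.0027) on day 6, 2.76 (SE 0.75, adjusted p = 0.0052) on day 8 and 2.88 (SE 0.75, adjusted p = 0.0029) on day 10.

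F/R/C replicate 3 was the highest Ache library on each of days 4, 6, 8 and 10, at 55.5, 50.9, 52.8 and 59.2 CPM. On day 10 the other F/R/C libraries stood at 20.0 and 18.9 CPM, and without replicate 3 the log2 change was 2.29 (adjusted p = 0.018, over a range of 0.00019 to 0.018 among all alternatives). The call of day 4 was lost without F/R/C replicate 3 (1.68, adjusted p = 0.14) and without MyoD alone replicate 2 or 3 (2.12 and 1.94, adjusted p = 0.088 and 0.11, over a range of 0.0096 to 0.14). A test of the difference itself put the F/R/C effect on Ache 3.74 higher on day 10 than on day 2 (SE 1.04, adjusted p = 0.024). It was the 1 member of 10 called in that test, where 6.01% of all genes were called, and the call was lost without any 1 of 5 libraries (MyoD alone day 2 replicate 3, F/R/C day 2 replicate 2, MyoD alone day 10 replicate 1 or 3, F/R/C day 10 replicate 3), with adjusted p-values of 0.051 to 0.06. The neuronal genes Chat and Slc18a3, which mark cholinergic neurons, had no read in any F/R/C library of days 4 to 10. Snap25, a neuronal vesicle-fusion gene, was called in each day of F/R/C from 4 to 10, with higher levels. Over all 8 neuron markers, of which 4 were tested, the summed level with F/R/C and without was 73.8 to 169.2 and 26.47 to 54.13 CPM on day 4 and 67.46 to 112.7 and 24.62 to 46.07 CPM on day 6, apart on both days. It was 28.71 to 74.88 and 29.61 to 53.96 CPM on day 8 and 21.91 to 43.44 and 34.14 to 62.66 CPM on day 10, with overlap. Tubb3, a neuronal tubulin gene in that list, was also called higher on day 4. Over 6 Schwann cell markers the sums overlapped on days 4, 6 and 8 and were 9.38 to 19.18 and 1.847 to 3.964 CPM on day 10. The part of such cells in the level of Ache was not tested. The gene Colq encodes the collagen tail that anchors acetylcholinesterase in the basal lamina. It was not called for F/R/C on any day.

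Rapsn and Chrnb1 were the members called lower with F/R/C. Rapsn, the clustering scaffold, stood at 20.2, 39.8 and 35.2 CPM with F/R/C on day 4 and at 49.8, 89.1 and 79.2 CPM without. The groups did not overlap on day 4 or on day 6, when it stood at 27.0, 42.9 and 53.0 CPM against 60.6, 107 and 89.2 CPM. The log2 changes were -1.20 (SE 0.37, adjusted p = 0.019) and -1.06 (SE 0.37, adjusted p = 0.032). The change of day 4 lost its call without MyoD alone replicate 2 or 3 or F/R/C replicate 1, with values of -0.92 to -1.10. That of day 6 lies at the fold threshold and lost its call under 4 other settings and without any of 4 libraries (MyoD alone replicates 2 and 3, F/R/C replicates 1 and 2), with values of -0.83 to -1.04 and adjusted p-values up to 0.14. By day 10 Rapsn stood at 35.0, 56.0 and 49.3 CPM with F/R/C and 42.1, 83.6 and 36.5 CPM without, and the groups overlapped.

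Chrnb1 had a lower fitted value with F/R/C on every day, from -0.56 to -1.13 on the log2 scale, and was called on day 10 alone. On that day it stood at 71.7, 91.8 and 63.1 CPM with F/R/C and at 109.8, 282 and 104 CPM without. The groups did not overlap, and the change was -1.13 (SE 0.32, adjusted p = 0.0052). Its size rests on MyoD alone replicate 2: without that library the change was -0.39 (adjusted p = 0.32, over a range of 0.0031 to 0.32). Without F/R/C replicate 3 it was -0.86 (adjusted p = 0.058). The call was lost too with no low-count filter (-0.9989, adjusted p = 0.016) and with only the 2 groups fitted (-1.031, adjusted p = 0.094). MyoD alone replicate 2 of day 10 was also the highest of its group for each of the 9 detected members and for the differentiated muscle markers, at 31660 CPM against 8906 and 14420 CPM.

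On day 2 no member was called in the edgeR fit of all groups without a replicate block, and Musk was called when these 2 groups alone were fitted (1.502, adjusted p = 0.0087). In the fit of all groups 4 members had an unadjusted p under 0.05, and DESeq2 called 1, Musk. Same-numbered libraries of the 2 arms varied together on days 2, 4 and 6, and with the replicate number as a block 2 members were called on day 2. Musk stood at 37.4, 68.5 and 42.4 CPM with F/R/C and 13.7, 19.6 and 20.0 CPM without, groups that did not overlap (1.48, SE 0.49, adjusted p = 0.057; with the block 1.45, adjusted p = 0.049). Chrna1 stood at 258, 593 and 314 CPM against 529.9, 1109 and 1025 CPM, which overlapped (-1.19, SE 0.44, adjusted p = 0.091; with the block -1.23, adjusted p = 0.036). Myod1, whose reads from the transgene and the endogenous gene cannot be told apart, stood at 723 to 1350 CPM with F/R/C and 2000 to 3570 CPM without on day 2, and its part in these values was not tested. Chrnd, Chrng, Musk, Dok7 and Lrp4 were called on no day in the fit of all groups. On day 4 Chrnd (274, 458 and 468 CPM against 166, 231 and 199.8 CPM) and Musk (182, 266 and 210.1 CPM against 82.1, 131 and 113 CPM) did not overlap between the arms. Both had a log2 change of 1.01 (adjusted p = 0.17 and 0.13), and both were called when these 2 groups alone were fitted (adjusted p = 0.016 and 0.011).

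Reads of the fetal subunit Chrng outnumbered those of the adult subunit Chrne in every library with reads of either. Over all 45 libraries 435 reads were assigned to Chrne, and 410 of them came from bulk iMPCs and bulk myoblasts. No other library held more than 5. Chrng, by contrast, had 3825 to 19324 reads per library in the induced cells of days 2 to 10. Reads were counted without molecular identifiers, so the intervals and limits below cover counting error only.

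With MyoD alone, 1 of 15 libraries held a Chrne read, and that was a single read. With F/R/C, 9 of 15 libraries held 14 reads in all, with at most 3 in 1 library. Expressed as a share of Chrng plus Chrne reads, the highest value among these 30 libraries was 0.0296% (F/R/C day 8). In libraries without a Chrne read, 3 reads would have been a share of at most 0.0784%. Bulk iMPCs held 34, 41 and 30 Chrne reads, which made 0.179%, 0.257% and 0.218% of Chrng plus Chrne reads (95% Clopper-Pearson intervals 0.124 to 0.251%, 0.184 to 0.348% and 0.147 to 0.312%). Their intervals overlap one another and lie above the values of all 30 induced libraries.

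Bulk myoblasts had 86, 217 and 2 Chrne reads, or 1.10%, 1.40% and 0.0442% of the pair (intervals 0.878 to 1.35%, 1.22 to 1.6% and 0.00536 to 0.16%). Replicates 1 and 2 were the highest libraries of the series in Chrne, and replicate 3, the library with few differentiated muscle markers, was not separable from the sorted cells. Pax7+ myoblasts held 3, 5 and 0 reads and Pax7+ iMPCs 0, 2 and 0. Those 2 reads make 0.209% (interval 0.0253 to 0.752%), since Chrng had only 956 reads in that library. Per length, Chrng exceeded Chrne by 438-fold, 263-fold and 239-fold in TPM in bulk iMPCs, and by 58.1-fold and 51.8-fold in bulk myoblast replicates 1 and 2.

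**Figure D3:**
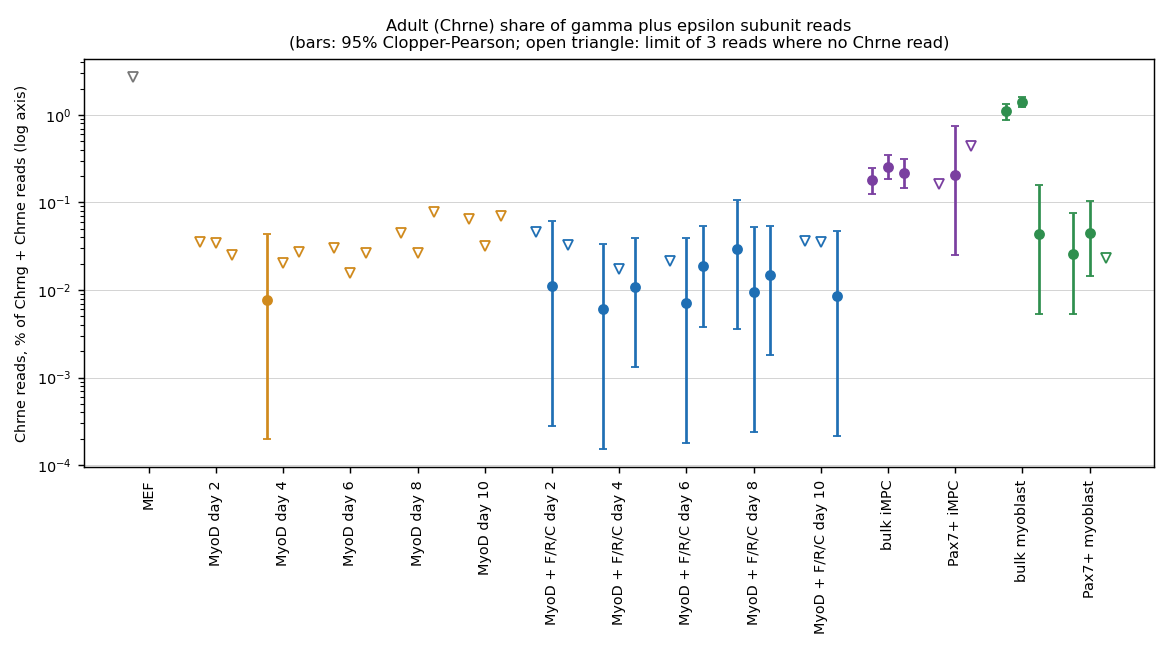
Share of Chrne among Chrng plus Chrne reads in each library (log axis, percent), with 95% Clopper-Pearson bars, by group. Open triangles mark libraries with no Chrne read and show the share that 3 reads would give. The 2 MEF libraries with no read of either gene are not drawn. Among libraries with a Chrne read, bulk myoblast replicates 1 and 2 (1.10% and 1.40%) lie highest. Bulk iMPCs (0.179 to 0.257%) and Pax7+ iMPC replicate 2 (0.209%) follow. The triangles of MEF replicate 1 (2.68%) and Pax7+ iMPC replicate 3 (0.437%) are limits from libraries with few Chrng reads, not measured shares.

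The log2 ratio of Chrng to Chrne was computed in TPM with 0.1 TPM added to each gene. It was 11.8 ± 0.151 (SD, n = 3) on day 2 of MyoD alone, 10.9 ± 0.722 on day 10 of MyoD alone and 11.4 ± 0.212 on day 10 with F/R/C. On those 2 days of MyoD alone Chrne had 0 reads, so the values and their SD reflect Chrng over the added constant. Day 10 with F/R/C held 1 Chrne read in all. The ratio in bulk iMPCs and the other groups was as follows. It was 8.13 ± 0.45 in bulk iMPCs, 6.61 ± 1.49 in bulk myoblasts, 10.4 ± 1.59 in Pax7+ myoblasts and 8.02 ± 0.964 in Pax7+ iMPCs. In Pax7+ iMPCs Chrng itself was low, at 23.2 to 52.8 TPM, and in MEFs (1.78 ± 3.08) Chrne had no read and Chrng had reads in 1 library. Averaged over the 5 days, the ratio differed between F/R/C and MyoD alone by -0.19 (two-sided permutation test within days, 100000 resamples, p = 0.44). With so few Chrne reads the value moved with the added constant: by the same permutation test the difference was 0.24 (p = 0.115) with 1 TPM and -1.40 (p = 0.0188) with 0.01 TPM. Libraries of the same replicate number may share an origin over days, so these p-values can be too small. No shift of the ratio with F/R/C held across these constants.

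Between bulk iMPCs and F/R/C day 10, Chrne was called higher. The F/R/C day 10 libraries held 0, 0 and 1 read, and against a floor of 3 reads per library bulk iMPCs were at least 7.79-fold higher (edgeR adjusted p = 0.004). Rapsn stood at 18.5, 12.2 and 17.9 CPM in bulk iMPCs and Dok7 at 32.0, 32.8 and 33.3 CPM. Both lay below every F/R/C day 10 library (35.0 to 56.0 and 81.9 to 102 CPM), with log2 changes of -1.53 (SE 0.38, adjusted p = 0.0039) and -1.44 (SE 0.51, adjusted p = 0.041). These were 3 of 10 members called, against 9.57% of all genes. The call of Dok7 was lost without any 1 of 5 libraries (F/R/C day 10 replicate 1 or 2, or any bulk iMPC library), with adjusted p-values of 0.071 to 0.11 and values of -1.35 to -1.49. That call was lost too with no low-count filter (-1.446, adjusted p = 0.055).

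Bulk iMPCs and bulk myoblasts differed in both receptor and assembly genes, and all called members were lower in iMPCs. Of the 10 members 5 were called, against 19.6% of all genes (8.7% lower). Chrna1 stood at 747, 622 and 465 CPM in bulk iMPCs and at 2798, 2018 and 1378 CPM in bulk myoblasts (-1.76, SE 0.45, adjusted p = 0.0029). Chrnb1 stood at 89.2, 65.8 and 74.5 CPM against 347, 307 and 263 CPM (-2.00, SE 0.33, adjusted p = 2.5e-05), and Rapsn against 64.8, 39.5 and 56.9 CPM (-1.73, SE 0.38, adjusted p = 0.00072). None of these 3 genes overlapped between the groups, which again describes genes already selected by the test on the same libraries.

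Dok7 and Lrp4 were also called (-1.42 and -1.10, adjusted p = 0.029 and 0.049), but neither call held in all alternatives. Dok7 was -0.88 (adjusted p = 0.22) without bulk myoblast replicate 1, and lost its call as well without any bulk iMPC library (adjusted p = 0.071 to 0.075). With only the 2 groups fitted its call was lost too (-1.462, adjusted p = 0.067). Lrp4 lost its call without any bulk myoblast library or without bulk iMPC replicate 2 or 3, with values of -0.89 to -1.25 and adjusted p-values of 0.052 to 0.16. It also lost its call with no low-count filter (adjusted p = 0.074) and with only the 2 groups fitted (adjusted p = 0.05). Chrnd and Chrng had fitted values of 0.22 and 0.58 (adjusted p = 0.78 and 0.5) and were not called. Fibroblast markers were higher in bulk iMPCs for 9 of 9 genes, with summed levels of 2104 to 3740 CPM against 340.2 to 584.7 CPM. The differentiated muscle markers were not called (0 of 9). The part of such marker differences in the members' values was not tested.

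The 5 subunits made up different mixtures in the 2 cell types. In TPM, a scale per transcript length, Chrna1 was 49.6% ± 5.35 (SD, n = 3) of the 5 subunits in bulk myoblasts and 24.5% ± 2.34 in bulk iMPCs. Chrng was 16.2% ± 4.54 and 42.5% ± 1.08. Among induced cells of day 10, Chrng was 29.9% ± 2.36 with MyoD alone and 43.4% ± 2.34 with F/R/C, and Chrnb1 was 22.1% ± 0.992 and 10.5% ± 2.26. The bulk iMPC mixture (Chrnb1 7.59% ± 1.11, Chrnd 25.3% ± 2.44) lay beside that of F/R/C day 10 (Chrnd 24% ± 2.92). The summed TPM of the 5 subunits was 791.7 to 1026 in bulk iMPCs, 1167 to 1967 in bulk myoblasts and 17.66 to 22.11 in MEFs. These shares are described without a test.

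**Figure D4:**
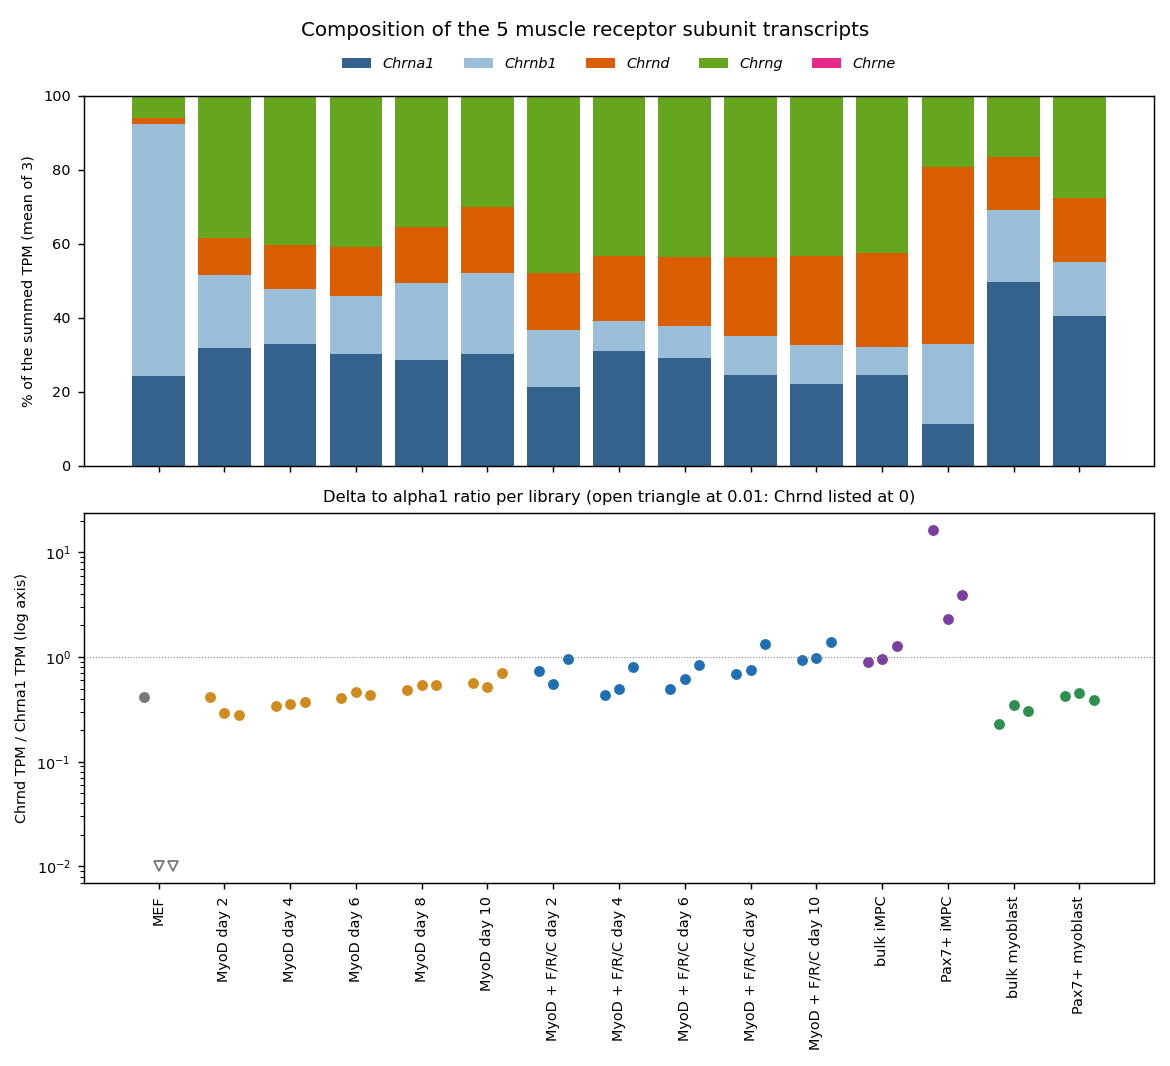
Top, mean share of each of the 5 subunit genes in their summed TPM by group (3 libraries each, bars from 0 to 100%, Chrne too small to see). Bottom, the ratio of Chrnd to Chrna1 TPM in every library (log axis, dotted line at 1): Pax7+ iMPCs lie at 2.30 to 16.4 and every other library at or below 1.40.

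Cells sorted for the Pax7 reporter were compared with bulk cells in iMPCs and in myoblasts. Musk, Ache and Chrne were called lower in the sorted cells of both. In Pax7+ iMPCs, 5 of 10 members were lower than in bulk iMPCs, against 30.3% of all genes called and 20.5% called lower. Chrna1 stood at 24.8, 74.7 and 37.5 CPM, against 747, 622 and 465 CPM in bulk iMPCs (-3.74, SE 0.48, adjusted p = 3.9e-07). Chrng stood at 80.5, 38.6 and 35.5 CPM against 518, 449 and 369 CPM (-3.11, SE 0.67, adjusted p = 0.00029). Both genes were low in all 3 sorted libraries, without overlap.

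Musk, at 9.97, 18.9 and 18.1 CPM, was below all bulk iMPC libraries (93.3 to 137 CPM), with a change of -2.82 (SE 0.51, adjusted p = 4.3e-05). Ache, at 2.69, 6.34 and 2.12 CPM against 78.7, 31.7 and 48.7 CPM, had a log2 change of -3.83 (SE 0.78, adjusted p = 0.00018). Chrne was at least 7.12-fold lower by the floor of 3 reads per library (adjusted p = 0.0027). The member median was -1.98, and -1.15 without Chrne, beside -0.13 over all genes. All 9 differentiated muscle markers fell in the same comparison, from a sum of 20950 to 27130 CPM to one of 716.9 to 1506 CPM, and 6 of 9 fibroblast markers fell. The part of these marker changes in the members' values was not tested.

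The other 5 members were not called. Chrnd kept 291, 121 and 107 CPM in Pax7+ iMPCs against 410.4, 375 and 363 CPM (-1.15, SE 0.52, adjusted p = 0.069), and its call depends on Pax7+ iMPC replicate 1, without which it was -1.75 (adjusted p = 0.017). That library is the one with the high neuron marker sum of 153.9 CPM, whose part in the level of Chrnd was not tested. Chrnb1 likewise was called without replicate 1 (-1.15, adjusted p = 0.0078). Rapsn stood at 29.9, 35.4 and 20.6 CPM, above all bulk iMPC libraries (0.82, SE 0.37, adjusted p = 0.066), and was called without Pax7+ iMPC replicate 3 (1.06, adjusted p = 0.032). Dok7 and Lrp4 had fitted values of -0.32 and -0.79 (adjusted p = 0.61 and 0.13). The ratio of Chrnd to Chrna1 TPM was 16.4, 2.30 and 3.94 in Pax7+ iMPCs, whereas no other library of the series passed 1.40. Delta made up 47.9% ± 6.7 of the subunit TPM there and alpha 11.3% ± 7.93.

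In myoblasts, 3 of 10 members were called between Pax7+ and bulk cells, all lower in Pax7+ cells, against 6.23% of all genes called and 4.03% called lower. Ache stood at 2.72, 2.54 and 4.35 CPM in Pax7+ myoblasts, against 48.1, 45 and 1.16 CPM in bulk (-3.30, SE 0.77, adjusted p = 0.0051). Bulk myoblast replicate 3 lay below the sorted libraries, so that the groups overlapped. Chrne showed the same split, with 3, 5 and 0 reads against 86, 217 and 2 (-4.87, SE 1.06, adjusted p = 0.0048). Musk stood at 47.7, 37.7 and 108 CPM against 318, 145 and 106 CPM (-1.56, SE 0.49, adjusted p = 0.033), and was -0.96 (adjusted p = 0.26) without bulk myoblast replicate 1. Its call was lost too without Pax7+ myoblast replicate 1 (adjusted p = 0.099) or 2 (0.18), over a range of 0.01 to 0.48. When only these 2 groups were fitted, Chrne did not enter the fit, Musk and Ache were not called (adjusted p = 0.48 and 0.47), and neither was any other gene. Chrna1, at 1249, 850.1 and 1983 CPM in Pax7+ myoblasts, overlapped the bulk values. Chrng, at 408, 397 and 700.1 CPM, lay above all bulk libraries (348, 382 and 165 CPM) but was not called.

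A test of the difference between the 2 sorts called 2 of 10 members, against 24.1% of all genes. The effect of the sort in iMPCs minus that in myoblasts was -3.14 for Chrna1 (SE 0.63, adjusted p = 0.00034) and -3.86 for Chrng (SE 0.90, adjusted p = 0.0014). Of the differentiated muscle markers 6 of 9 were lower in the same test. Compared directly, 7 of 10 members were lower in Pax7+ iMPCs than in Pax7+ myoblasts, against 30% of all genes called and 17.6% called lower. Chrna1 differed most (-4.90, SE 0.51, adjusted p = 6.7e-09), followed by Chrng (-3.28), Chrnb1 (-2.07), Musk (-2.04), Dok7 (-1.64), Lrp4 (-1.48) and Rapsn (-1.31). Chrna1, Chrnb1, Chrng, Musk and Rapsn kept their call in every alternative, although Musk was -1.44 without Pax7+ myoblast replicate 3. Dok7 lost its call without that library (adjusted p = 0.098) or without Pax7+ iMPC replicate 1 (adjusted p = 0.065). Its call was lost too when only the 2 groups were fitted (-1.645, adjusted p = 0.076). Lrp4 lost its call without Pax7+ myoblast replicate 3 (adjusted p = 0.051). Ache did not differ detectably (0.23, adjusted p = 0.82). Between these groups 7 of 9 differentiated muscle markers were lower and 5 of 8 proliferation markers higher in Pax7+ iMPCs.

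**Figure D5:**
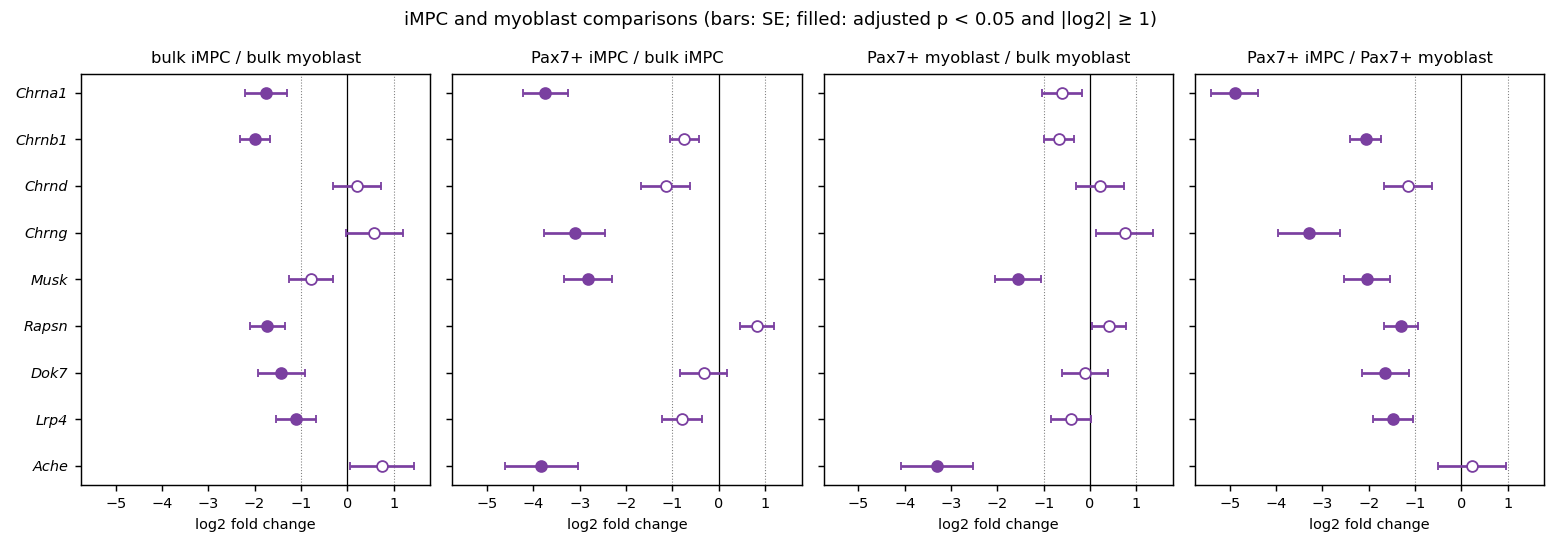
Fitted log2 fold change with standard error for 9 members (Chrne left out) in 4 comparisons of iMPCs and myoblasts, where filled points are called and dotted lines mark a log2 change of 1 in either direction. In Pax7+ iMPCs, Chrna1 (-3.74 against bulk iMPCs, -4.90 against Pax7+ myoblasts), Chrng and Musk lie far below 0, while Chrnd and Rapsn lie closer to it.

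Across the 15 groups most neighbouring levels overlapped. For each gene the 15 groups were ordered by mean CPM, which gives 14 neighbouring pairs, and in 12 or 13 of them the ranges of the libraries overlapped. Ordering by the mean sets like groups side by side, so this overlap does not show a continuum. MEFs were lowest and apart from the next group in 9 genes. The share of all genes with that pattern was not computed. Chrna1 was highest in bulk myoblasts (2065 ± 711 CPM, SD, n = 3), Chrnd, Chrng and Musk in F/R/C day 4 (400.4 ± 109, 835 ± 92.3 and 219.6 ± 43 CPM), Lrp4 in MyoD alone day 2 (436 ± 109 CPM) and Ache in bulk iMPCs (53.0 ± 23.8 CPM). For Ache the only gap above MEFs split 6 groups at mean levels of 30.6 CPM or more from the rest at 7.66 CPM or less. The 6 groups were bulk iMPCs, bulk myoblasts and F/R/C days 4 to 10, although bulk myoblast replicate 3 had 1.16 CPM. For Chrna1 and Chrng, Pax7+ iMPCs formed a step of their own between MEFs and all other groups.

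The pattern over the 15 group means was most alike within the group for Chrng and Dok7 (r = 0.966) and for Chrnd and Chrng (r = 0.949) on log2 CPM, and lowest for Chrne and Dok7 (r = -0.00739). Among 17315 other genes, the one most like Chrng was Ttn, which encodes the giant sarcomere protein titin (r = 0.992). Chrnd was most like Des, the muscle intermediate filament desmin (r = 0.979), and Chrnb1 most like Sync, an intermediate filament partner (r = 0.979). Dok7 was most like Jsrp1, a protein of the calcium-release junction (r = 0.991), and next to Myod1 (r = 0.984). The most alike genes for the others were AC115692.3 for Chrna1 (r = 0.968), Arpp21 for Musk (r = 0.977), 1110002E22Rik for Rapsn (r = 0.963), Mum1l1 for Lrp4 (r = 0.987), Zfp84 for Ache (r = 0.946) and Asb11 for Chrne (r = 0.904). All of these values describe 15 group means that share the MEF minimum.

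Transcript isoforms were estimated for the members with several transcripts. Chrnd-202, a protein-coding isoform, took 34.99 to 41.09% of Chrnd reads in bulk iMPCs and at most 23.71% in any library of the other 14 groups. Chrnd-201 took most of the rest (58.25 to 63.83% in bulk iMPCs). Musk-205 took 0.14 to 2.35% of Musk reads in bulk iMPCs, and its median in the other groups lay between 8.72% and 67.13%, although single libraries of F/R/C days 4 and 6 and of Pax7+ myoblasts were also near 0. The division of reads between overlapping isoforms is an estimate with no error given in the files, so these shares are a description.

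Genes that act around the members were followed in lists. Agrn encodes agrin, which at the junction acts as a nerve-derived signal. Its reads were summed over transcripts, so forms of agrin were not told apart here. Agrn was 1.92 higher in Pax7+ than in bulk iMPCs (SE 0.21, adjusted p = 2.5e-08) and 2.21 higher than in Pax7+ myoblasts (SE 0.21, adjusted p = 1.6e-09), opposite in sign to Musk and Chrna1. Of 5 organising signals (Agrn, Nrg1 and 3 ERBB receptors), 4 were higher and 0 lower on day 10 with F/R/C than in MEFs, where 34.8% of all genes were called and 19% higher, and 0 were called between F/R/C and MyoD alone on day 10. The exception among earlier days was Erbb2, lower on day 4 (-1.21, adjusted p = 0.0087).

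The counts of the next lists for F/R/C on day 10 stand beside 23.3% of all genes called in that comparison. Of 16 genes downstream of MuSK, 1 was higher and 3 lower, a share near that background. Cdk5r1, an activator of the kinase CDK5, was higher by 3.22 (SE 0.42, adjusted p = 1.2e-06), and had been higher on days 4, 6 and 8 by 1.17, 1.71 and 2.69. Src and Pak1, which encode kinases, were lower (-1.82 and -1.06), and so was Cttn (-1.02). Of the scaffold and basal lamina genes, 13 of 14 were tested, and with F/R/C on day 10 2 were higher (Col13a1, 2.58, and Nid2, 1.38) and 1 lower (Lamb2, -1.01). In Pax7+ iMPCs 8 of them changed against bulk iMPCs, 2 upward and 6 downward where 30.3% of all genes were called, among them Colq (-4.36, adjusted p = 5.1e-05). Of 8 folding and glycosylation genes, 2 were lower with F/R/C on day 10, Ric3 (-2.28) and Gmppb (-1.03).

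Of 10 regulators of synaptic or activity-linked transcription, Sik1 was higher (1.23) and Etv4, an ETS-family factor, lower (-2.22, adjusted p = 0.0027) with F/R/C on day 10. Myog, a MyoD relative that activates receptor genes, was called for F/R/C on no day. It rose on day 2 of MyoD alone by 9.12 over MEFs (SE 1.07, adjusted p = 5.7e-08) and was lower in Pax7+ iMPCs than in Pax7+ myoblasts (-2.12, adjusted p = 0.024). Of 11 nicotinic subunits of neuronal and sensory receptors, 6 passed the filter. With F/R/C on day 10, Chrna4, Chrnb4 and Chrna9 were higher and Chrna7 was lower (-2.05). Chrnb4 stood at 5.34 ± 1.5 CPM (SD, n = 3) against 0.202 ± 0.0397 CPM (log2 change 4.70), Chrna4 at 2.43 ± 0.98 CPM against at most 1 read per library, and Chrna9 at 0.834 ± 0.283 CPM against at most 5 reads per library.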

How the data were processed

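RNA-seq was done on poly-A RNA with a stranded kit, per the labels' protocols. The submitters' processing notes name bcl2fastq 2.19, Trimmomatic 0.36, kallisto 0.44, edgeR 3.28 and build GRCm38.p6. The transcript release was not given in the sources used here. Per the file headers, the authors deposited a kallisto estimated count and a TPM value for each of 121843 transcripts in each of 45 libraries. Reads that fit several transcripts are divided between them, so isoform and antisense values are estimates.

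Estimated counts of 121104 transcripts found in GENCODE M21 (99.357 to 99.782% of reads) were summed to 35675 genes and rounded. edgeR 4.0.16 in R 4.3.3 (TMM, filterByExpr, 1 quasi-likelihood fit of all 45 libraries with 30 residual degrees of freedom) tested 17325 genes, after a check on simulated data. Called means an adjusted p under 0.05 and a log2 fold change of at least 1. Limits for no reads use 3 reads, and intervals are 95% Clopper-Pearson. The members and lists were chosen with earlier results of these data known, and the 2 tests of differences between effects and the list counts under alternatives were added after the data were seen. Named were the 10 members, the gene most like each, Agrn, Colq, Myog, and up to 2 genes per list and direction called on day 10. Snap25, Tubb3, Prrx1, Dcn, Thy1, Col1a2, Erbb2, Cttn, Chrna9, Myod1, Pax7 and the second most like gene of Dok7 were named after their values were seen.

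Alternatives were RLE scaling, no low-count filter, no minimum fold, DESeq2 1.42.0, a fit of only the groups compared, the replicate block and leaving out each library. Replicate numbers are shared between groups by the titles. Deviations from the group mean correlated over 0.1 for every same-numbered pair between F/R/C and MyoD alone on days 2, 4 and 6 (r = 0.223 to 0.375) and between days 10 and 2 of MyoD alone (0.201 to 0.416), and not in the other comparisons. Total reads of 15.6 to 36.3 M per library limit the precision for Chrne most.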

Additional observations from a re-analysis of the deposited data

Results flagged for a closer look

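The effects of F/R/C and of the Pax7 sort were compared between settings by a test of the difference itself, and 3 members passed it: 1 of 10 in the first test, where 6.01% of all genes were called, and 2 of 10 in the second, where 24.1% were. The F/R/C effect on Ache was 3.74 higher on the log2 scale on day 10 than on day 2 (SE 1.04, edgeR adjusted p = 0.024). This call was lost without any 1 of 5 libraries (adjusted p = 0.051 to 0.06). The groups overlapped on day 2, and on day 10 all 3 F/R/C libraries were above all 3 without. The change between Pax7+ and bulk cells in iMPCs minus that in myoblasts was -3.14 for Chrna1 (SE 0.63, adjusted p = 0.00034) and -3.86 for Chrng (SE 0.90, adjusted p = 0.0014). In iMPCs all 3 sorted libraries lay below all 3 bulk libraries for both genes, and in myoblasts the sorted and bulk libraries overlapped for Chrna1 but not for Chrng, which was higher in all 3 sorted libraries.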

How the results depend on the processing

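Of 917 alternatives tried for the 75 called member results, 862 kept direction and call, 55 lost the call and 0 reversed, and 60 results held under all of theirs. For the 90 results not called, 16 of 1170 alternatives gave a call. The number of called members moved by over 1.5 times as follows. For F/R/C against MyoD alone, day 2 gave 2 with the replicate block, 1 with DESeq2 and 1 with only the 2 groups fitted, against 0. Day 4 gave 4 with only the 2 groups, against 2. Day 6 gave 1 with RLE scaling, 1 with no low-count filter, 1 with DESeq2 and 1 with only the 2 groups, against 2. Day 8 gave 2 with no minimum fold, against 1, and day 10 gave 1 with no filter and 1 with only the 2 groups, against 2. With only the 2 groups fitted, bulk iMPCs against bulk myoblasts gave 3, against 5, and Pax7+ against bulk myoblasts gave 0, against 3. In the same kind of fit MyoD alone day 10 against MEFs gave 8, against 9, without Lrp4. The replicate block changed no other count of members by over 1.5 times. The ratio difference of -0.19 was 0.242 with 1 TPM added, -1.4 with 0.01 TPM added and -0.188 with the block (permutation p = 0.386).

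Leaving out 1 library gave 0 called members on day 2, 0 to 2 on day 4, 1 to 2 on days 6, 8 and 10, and 9 in each comparison with MEFs. It gave 2 for MyoD alone day 10 against day 2, 3 to 4 for the same days with F/R/C, 2 to 3 for bulk iMPCs against F/R/C day 10 and 3 to 5 against bulk myoblasts. It gave 5 to 7 for Pax7+ against bulk iMPCs, 2 to 3 for Pax7+ against bulk myoblasts, 5 to 7 between the Pax7+ groups, and 0 to 1 and 2 to 3 in the tests of differences between effects. The ratio difference ranged from -0.402 to -0.0588. The share of all genes called ranged from 2.37 to 10.1% on day 2 and from 0.0 to 8.03% for Pax7+ against bulk myoblasts. Depth limits Chrne most, with at most 3 reads per library in the time course.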
